A study of Mus musculus with 45 samples.

Results

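The genes described here were the constitutive proteasome genes, taken as every gene of the probe annotation whose symbol starts with Psma, Psmb, Psmc, Psmd, Psme, Psmf or Psmg. Psmb8, Psmb9 and Psmb10, the catalytic subunits of the immunoproteasome, were left out. The rule found 46 members among 12716 genes measured in either of the 2 deposited tables. Of these, 43 were in the table of passages 4, 6 and 16, which held 11807 genes, and 45 were in the table of passage 10, which held 12394 genes. Psmc6, Psmd10 and Psme4 were missing from the first table and Psme2 from the other, where its probe set carries several symbols. The symbol rule also took in Psmc3ip, a partner of the meiotic recombinase machinery, and Psme3ip1, a binding partner of Psme3. Neither encodes a proteasome subunit, so 44 members were proteasome genes proper.

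The proteasome is the protease that degrades most ubiquitin-tagged proteins of a cell. Its barrel-shaped core is built from outer rings of alpha subunits (Psma genes) and inner rings of beta subunits (Psmb genes), of which Psmb5, Psmb6 and Psmb7 carry the chymotrypsin-like, caspase-like and trypsin-like active sites. A regulatory particle of ATPases (Psmc genes) and non-ATPase subunits (most Psmd genes) binds, strips and unfolds the substrate. Psmg genes and Psmd5, Psmd9 and Psmd10 encode assembly chaperones. Psme1 to Psme4 encode alternative activators of the core and Psmf1 an inhibitor. Pluripotent stem cells are known for high proteasome activity. Not every member is constitutive in the strict sense: Psme1 and Psme2 are interferon-inducible, and Psma8 is the testis form of an alpha subunit.

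The study compared mouse induced pluripotent stem cells (iPSCs) by the cell they came from, using a secondary reprogramming system, in which the starting cells already carry the reprogramming factors. RNA of 45 cultures was hybridised as biotin-labelled cRNA, in 15 groups of 3 clones, and every group came from 1 of 2 mice. Mouse 2 gave lines derived from tail tip fibroblasts, splenic B cells, T cells and bone marrow granulocytes, each at passages 4, 10 and 16. From mouse 1 came granulocyte-derived lines, taken at passages 4 and 16, and lines that began as skeletal muscle precursors, taken at passage 6. All lines were grown with 15% fetal bovine serum and LIF on irradiated mouse embryonic fibroblasts, and were preplated for 45 minutes to take these feeder cells out before RNA was made. The labels give neither age, sex nor strain of the mice.

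Values are the authors' log2 expression values, and a difference of 1 is a doubling. Each table was normalized on its own, so passage 10 was never subtracted from another passage. Each gene was represented by its probe set with the highest mean, and levels of different genes were not set against each other. Differences are given ± SE from limma with 3 clones in each group, and a gene is counted as called where its Benjamini-Hochberg adjusted p, taken over all genes of the table, was under 0.05. Each side of a comparison came from 1 mouse, so the p-values measure how clones vary, not how animals do.

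The upstream DNA of 3 members is printed with its matches to the pattern of a known regulatory element. The transcription factor Nfe2l1, which with small Maf proteins drives proteasome genes when the proteasome is inhibited, binds the antioxidant response element, here searched as TGACNNNGC on both strands. RefSeq windows of the 250 bases before the start (mouse build GRCm38.p6) were matched for 38 of the 46 members. Psma8, Psmb1, Psmb2, Psmb7, Psmc3, Psmd3, Psmd7 and Psmg2 had no entry. Some members have several windows, 42 in all. The pattern was matched in 5 of these 42 windows (11.9%), those of Psmb5, Psmb6, Psmd9, Psmc6 and Psmd12. This was near the 10.2% of all 32851 windows, and whether any match is bound was not tested. CCAAT, a common promoter box searched on both strands, with overlaps of the motifs allowed, was in 14 of the 42 windows (33.3%), against 33.8% of all windows. The members with the match nearest to the start are printed below 5′ to 3′ on the gene's strand. Each ends at the base before the start, with the match in capitals. They lie at chr14:54617996-54618245 on the minus strand for Psmb5, at chr11:70525107-70525356 on the plus strand for Psmb6 and at chr5:123227940-123228189 on the plus strand for Psmd9.
Psmb5: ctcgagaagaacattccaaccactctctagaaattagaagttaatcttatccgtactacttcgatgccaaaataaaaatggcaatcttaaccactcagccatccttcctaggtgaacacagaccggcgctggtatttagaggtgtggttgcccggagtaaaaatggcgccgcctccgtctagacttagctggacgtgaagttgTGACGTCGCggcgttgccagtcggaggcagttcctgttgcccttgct
Psmb6: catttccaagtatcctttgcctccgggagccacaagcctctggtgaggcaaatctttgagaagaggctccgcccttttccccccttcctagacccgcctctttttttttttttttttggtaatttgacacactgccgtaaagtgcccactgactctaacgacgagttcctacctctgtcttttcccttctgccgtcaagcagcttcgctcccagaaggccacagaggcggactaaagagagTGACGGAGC
Psmd9: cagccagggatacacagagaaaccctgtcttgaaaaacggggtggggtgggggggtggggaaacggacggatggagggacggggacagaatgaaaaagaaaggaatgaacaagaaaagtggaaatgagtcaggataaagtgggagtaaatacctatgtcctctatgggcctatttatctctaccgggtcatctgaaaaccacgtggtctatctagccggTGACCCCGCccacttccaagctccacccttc
The match starts at base -47 of Psmb5, at base -9 of Psmb6 and at base -31 of Psmd9, counted back from the start. Psmb5 and Psmb6 encode catalytic subunits, and Psmd9 encodes a chaperone of the regulatory particle. The matches describe the sequence only.

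From its lowest to its highest array, a member spanned a median of 1.21 log2 units in the first table, from 0.49 for Psmd4 to 3.81 for Psmd7. The lowest Psmd7 value, 5.69, came from the array of granulocyte-derived clone 3 at passage 16 of mouse 2. At passage 10, with 12 arrays in place of 33, the median span was 0.388, from 0.107 for Psma3 to 0.922 for Psmd7.

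Markers of pluripotent cells were high in all groups, with list means over 9 genes between 11.13 and 11.71 in the first table and over 10 genes between 12.78 and 12.85 at passage 10. Fibroblast markers, which feeder cells also carry, were present and uneven: their mean over 15 genes was 6.60 to 7.66 by group in the first table, and over 17 genes 7.99 to 9.46 at passage 10. In these bulk cultures, fewer cells of a type and less RNA per cell cannot be told apart. Within-group correlations of arrays were 0.922 to 0.996 in the first table and 0.997 to 0.998 at passage 10. The array of granulocyte-derived clone 3 at passage 16 of mouse 2 stood apart: only 10 of its 43 members lay above their mean over the table, and their median deviation was -0.529 against 0.245 for all genes. It had the lowest pluripotent list mean, 10.57. Results that rest on it are given with and without it.

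**Figure D1:**
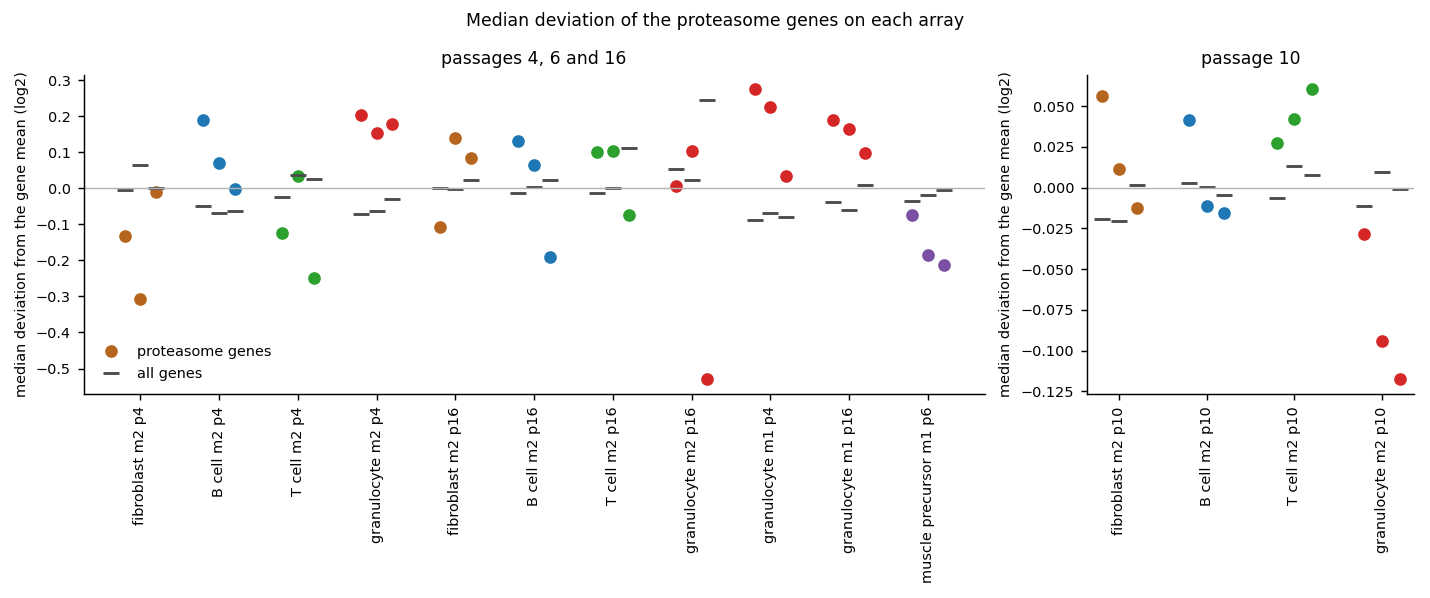
Median deviation of the members (points, coloured by cell of origin) and of all genes (dashes) on each array, in log2 units from each gene's mean over its table, for the 3 clones of each group; the panels are separate tables with separate scales. The lowest point is granulocyte-derived clone 3 of passage 16 in mouse 2 at -0.529, where all genes stand at 0.245.

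Whether early lines differ by cell of origin was addressed first at passage 4 in mouse 2. Of the 43 members, 19 (44.2%) differed among the 4 origins in the moderated F-test, against 39.0% of all genes, a share near the background. These were 2 of 8 alpha subunits, 4 of 7 beta subunits, 2 of 5 ATPases, 4 of 11 non-ATPase subunits, 2 of 6 chaperones, 3 of 4 activators or inhibitors and both symbol-only members. The count was 12 without granulocyte-derived clone 2. Psma5, Psmb5, Psmb7, Psmc4, Psmd7, Psme1, Psme2 and Psme3ip1 passed with each of the 12 arrays left out in turn. Among the called members, the widest gaps between origin means were those of Psmd7 (1.47), Psmb7 (1.08) and Psmc4 (0.96), each lowest in the T cell-derived lines. Psmd7 and Psmd9 lost the call with the mean of their probe sets (adjusted p = 0.356 and 0.0755). Next among the called members came Psme3 (0.93), Psma5 (0.91), Psmd9 (0.90), Psmb5 (0.87) and Psmc3ip (0.79), all lowest in fibroblast-derived lines. After them came Psme1 (0.79), lowest in granulocyte-derived lines, and Psmg3 (0.68). Psmc3ip and Psmg3 lost the call without fibroblast-derived clone 2 (adjusted p = 0.0727 and 0.23). Psmd9 lost it without that clone or granulocyte-derived clone 1 or 2 (adjusted p = 0.0915, 0.0701 and 0.0606), Psmb6 without T cell-derived clone 3 (adjusted p = 0.172), and Psme3 without any of 10 arrays.

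The catalytic subunits did not share 1 order of origins. Psmb5, the chymotrypsin-like subunit, read 10.73, 10.62 and 10.66 in fibroblast-derived clones 1 to 3, and 11.67, 11.45 and 11.48 in B cell-derived clones. It read 11.65, 11.43 and 11.21 in granulocyte-derived clones and 10.87, 11.31 and 10.51 in T cell-derived clones. Fibroblast-derived lines lay below all B cell- and granulocyte-derived clones, while the T cell-derived clones spread across the gap. Psmb7, the trypsin-like subunit, read 11.67, 11.78 and 11.49 in B cell-derived clones and 11.62, 11.47 and 11.33 in granulocyte-derived clones. It read 10.88, 10.27 and 11.07 in fibroblast-derived clones and 10.94, 10.11 and 10.65 in T cell-derived clones. All 6 clones of the first pair of origins lay above all 6 of the other pair. Psmb6, the caspase-like subunit, spanned less, and T cell-derived clones at 11.80, 11.79 and 11.35 lay below all others, which began at 11.84.

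**Figure D2:**
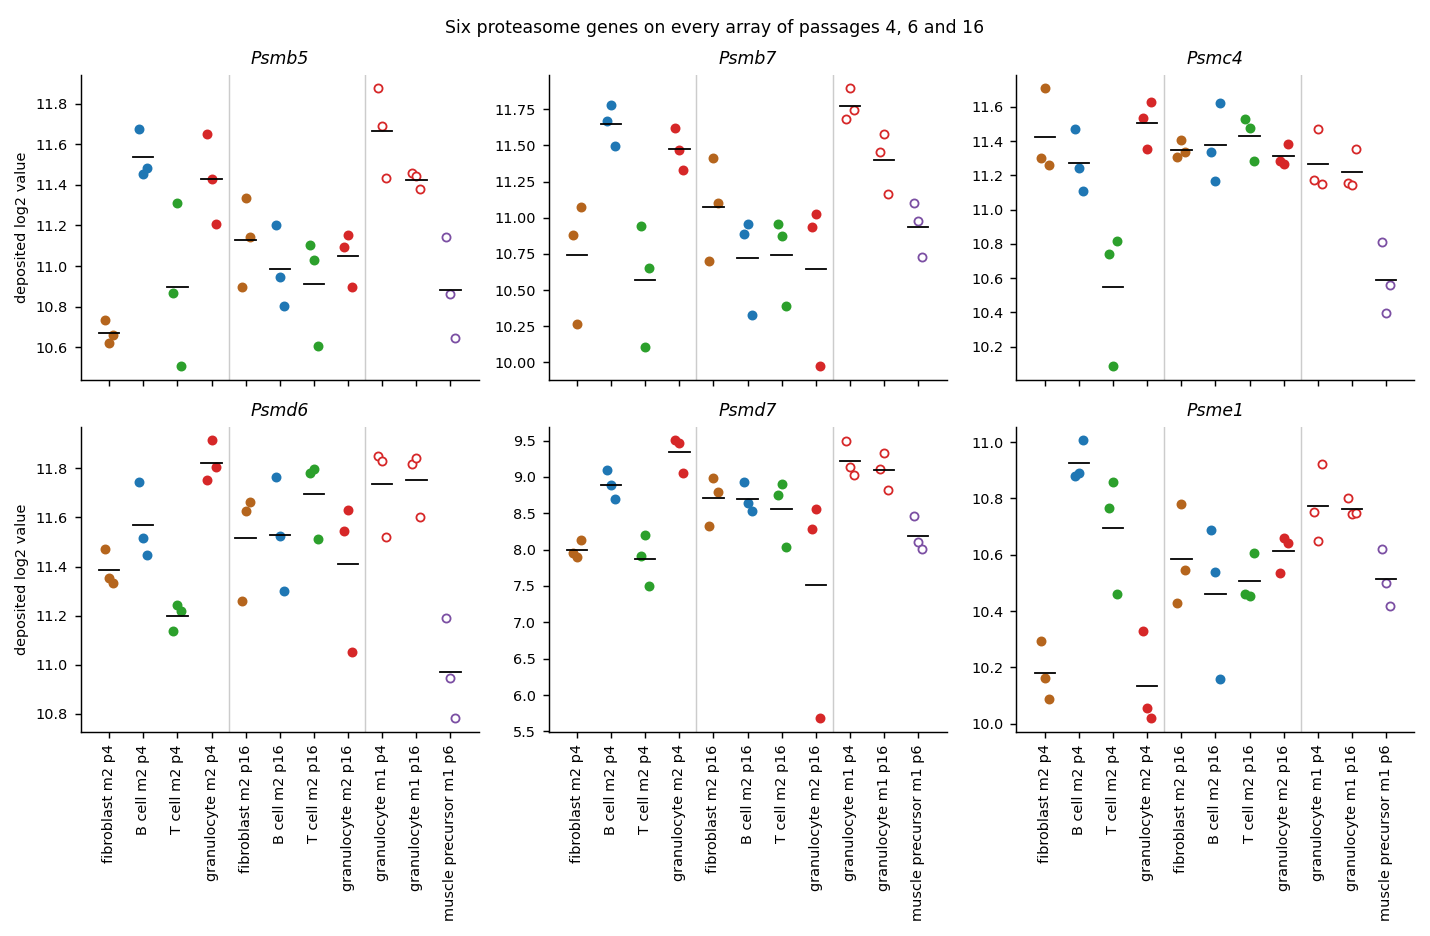
Deposited log2 values of Psmb5, Psmb7, Psmc4, Psmd6, Psmd7 and Psme1 on each of the 33 arrays of passages 4, 6 and 16 (points, 3 clones a group; bars are group means; m1 and m2 are the mice and p the passage; open points are mouse 1); vertical scales differ between genes. T cell-derived lines of passage 4 are lowest of mouse 2 for Psmc4, at 10.74, 10.09 and 10.82, and the lowest Psmd7 value, 5.69, is granulocyte-derived clone 3 of passage 16.

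At passage 4, fibroblast-derived lines were set against the mean of the other origins. Of 43 members, 7 were lower and 2 higher, 20.9% called against 19.5% of all genes, of which 11.7% were higher and 7.85% lower. The members' median difference was -0.18 with 33 of 43 below 0, against 0.06 over all genes. The lower members were Psma5, Psma7, Psmb5, Psmd9, Psme1, Psmg2 and Psmg3, and the higher ones Psmd3 and Psme3ip1. Psma5, an alpha subunit, read 10.50, 10.06 and 10.11 in fibroblast-derived clones and from 10.52 to 11.24 in the others, with no overlap. It was lower by -0.68 ± 0.14 (adjusted p = 0.000949). Psmb5 was lower by -0.62 ± 0.15 (adjusted p = 0.00378) and Psme1, an interferon-inducible activator subunit, by -0.40 ± 0.11 (adjusted p = 0.0113). Psmb7 at -0.49 (adjusted p = 0.101), Psme2 at -0.35 (adjusted p = 0.055), Psmc3ip at -0.56 (adjusted p = 0.0672), Psmd14 at -0.17 (adjusted p = 0.295) and Psmb6 at -0.02 (adjusted p = 0.915) did not pass.

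Psma5 and Psmb5 were the calls in fibroblast-derived lines that held with each array left out. The count fell to 2 without fibroblast-derived clone 2 and to 5 without granulocyte-derived clone 1 or B cell-derived clone 2, and Psme1 was lost without fibroblast-derived clone 2 (-0.39, adjusted p = 0.061) or clone 3 (-0.36, adjusted p = 0.0616). With the spread estimated without the array that stood apart, 17 members were called. The pluripotent list mean was 11.28 in these lines, 11.34 in T cell-derived, 11.68 in B cell-derived and 11.71 in granulocyte-derived lines. The fibroblast list mean was 6.64, 7.60, 6.60 and 7.17 in the same order of origins. The part of either list in the members' differences was not tested.

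B cell-derived lines of passage 4 had higher activator subunits. Of 43 members, 4 were higher (Psme1, Psme2, Psmb5 and Psmb7) and 2 lower (Psmd3 and Psme3ip1), 14.0% called against 10.1% of all genes, of which 3.80% were higher and 6.34% lower. With cyclic loess scaling the split was 4 higher and 1 lower. The members' median difference was 0.16 against -0.06 over all genes. Psme1 read 10.88, 10.89 and 11.01 in B cell-derived clones, above all other origins, whose highest value was 10.86. The difference was 0.59 ± 0.11 (adjusted p = 0.00139), and it held with each array left out. Psme2, its partner in the same activator ring, read 10.08, 9.99 and 10.20 against at most 9.96 elsewhere. It was higher by 0.50 ± 0.13 (adjusted p = 0.0125), but not without B cell-derived clone 1 (0.51, adjusted p = 0.0637) or clone 3 (0.45, adjusted p = 0.071).

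Psmb7 was higher in B cell-derived lines by 0.72 ± 0.21 (adjusted p = 0.026) and Psmb5 by 0.54 ± 0.15 (adjusted p = 0.0198). Psmb6 at 0.20, Psmd14 at 0.08 and Psmc3ip at 0.50 (adjusted p = 0.27, 0.735 and 0.15) did not pass. Psmd3, a lid subunit, was lower by -0.41 ± 0.11 (adjusted p = 0.0162) and Psme3ip1 by -0.36 ± 0.11 (adjusted p = 0.0358), both without overlap. Psmb7, Psmb5, Psmd3 and Psme3ip1 all lost the call without B cell-derived clone 1 or clone 2, with differences of 0.71 and 0.66 for Psmb7, 0.47 and 0.58 for Psmb5, -0.45 and -0.32 for Psmd3 and -0.34 and -0.36 for Psme3ip1. Psme3ip1 also lost it without clone 3 (-0.36), fibroblast-derived clone 2 (-0.32), T cell-derived clone 3 (-0.33) or granulocyte-derived clone 3 (-0.31). The count was 1 without B cell-derived clone 1 and 2 without clone 2. Fibroblast markers were called lower in these lines for 5 of 15 genes, and with their mean as a covariate no member was called. Endoderm markers were called higher in these lines for 6 of 8 genes, with a median difference of 1.15. Their list mean ran from 6.32 to 7.42 by clone, against 4.98 to 6.01 in the other origins, and their part in the result was not tested.

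T cell-derived lines of passage 4 were set apart by Psmc4, an ATPase of the regulatory particle. It read 10.74, 10.09 and 10.82 there and 11.11 to 11.71 in the other origins, with no overlap. The difference was -0.85 ± 0.14 (adjusted p = 7.19e-05) and held with each array left out. A further probe set of Psmc4 gave -0.40. Of 43 members, 4 were lower and none higher, 9.30% called against 18.8% of all genes, of which 12.3% were higher and 6.42% lower. With quantile scaling 1 was higher and 4 lower. The members' median difference was -0.15 against 0.03 over all genes.

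The other members lower in T cell-derived lines were Psmd6, Psmb6 and Psmb7. Psmd6, a lid subunit, read 11.14, 11.24 and 11.22 against at least 11.33 elsewhere, a difference of -0.39 ± 0.13 (adjusted p = 0.0323). It lost the call without any of the 3 T cell-derived clones (-0.36, -0.41 and -0.40), granulocyte-derived clone 2 (-0.38) or B cell-derived clone 1 (-0.36). Psmb6 was lower by -0.39 ± 0.11 (adjusted p = 0.00999), and the difference was -0.24 without T cell-derived clone 3 (adjusted p = 0.184). Psmb7 was lower by -0.72 ± 0.21 (adjusted p = 0.0148), and the difference was -0.49 without T cell-derived clone 2 (adjusted p = 0.199). Psmb5 at -0.32, Psmd14 at -0.24, Psmc3ip at -0.39, Psme1 at 0.28 and Psme2 at 0.07 did not pass (adjusted p = 0.148, 0.122, 0.238, 0.0824 and 0.797). Fibroblast markers were called higher in these lines for 8 of 15 genes. Psmc4 was the 1 member called with the mean fibroblast marker level as a covariate, and 8 were called with the spread estimated without the array that stood apart.

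In granulocyte-derived lines of passage 4 the called members were mainly higher. Of 43 members, 8 were higher and 1 lower, 20.9% called against 23.1% of all genes, of which 8.33% were higher and 14.8% lower. The members' median difference was 0.21 with 38 of 43 above 0, against -0.04 over all genes. The higher members were Psma5, Psmb2, Psmc2, Psmc4, Psmd6, Psmd7, Psmd9 and Psmd14, and the lower one was Psme1. All 5 ATPases, all 7 beta subunits and all 11 non-ATPase subunits lay above 0, although 2, 1 and 3 of them passed.

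Psmc2, an ATPase, was tight in granulocyte-derived lines at 11.22, 11.23 and 11.24, above every clone of the other origins, which began at 10.66. It was higher by 0.42 ± 0.11 (adjusted p = 0.0057). Psmd14, the deubiquitinase that removes ubiquitin chains at the regulatory particle, read 12.02, 11.99 and 12.01 against at most 11.86 elsewhere, a difference of 0.33 ± 0.10 (adjusted p = 0.0235). Psmd9 read 8.07, 8.0 and 7.84 against at most 7.72, a difference of 0.63 ± 0.20 (adjusted p = 0.0224). These 3 genes were separated from the other origins on every array. Psmb2, a non-catalytic beta subunit, was higher by 0.56 ± 0.16 (adjusted p = 0.0105) and Psmd6 by 0.44 ± 0.13 (adjusted p = 0.0137), also without overlap. Psme1 was lower by -0.46 ± 0.11 (adjusted p = 0.00295), at 10.33, 10.05 and 10.02, which overlapped the fibroblast-derived clones. Psmb5 at 0.39, Psmb6 at 0.21, Psmb7 at 0.49, Psme2 at -0.23 and Psmc3ip at 0.45 did not pass (adjusted p = 0.0532, 0.156, 0.0932, 0.224 and 0.138).

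Psmc2 and Psme1 were the calls in granulocyte-derived lines that held with each array left out. Without granulocyte-derived clone 1 the count was 4, and without clone 2 it was 5. Psmd9 was lost without clone 1 (0.58) or clone 2 (0.61) or with the mean of its probe sets (0.41, adjusted p = 0.073), Psmd14 without any of the 3 clones (0.32, 0.34 and 0.33) or with quantile or cyclic loess scaling (0.24 and 0.26), Psmb2 without clone 3 (0.49) and Psmd6 without clone 2 (0.39). Psmd7, at 1.09 ± 0.34 (adjusted p = 0.0195), stood on 1 of its 3 probe sets, and the other ones gave -0.61 and -0.77. With the spread estimated without the array that stood apart, 15 members were higher and 1 lower.

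At passage 10 the granulocyte-derived lines were the origin with most calls. The F-test over the 4 origins called 12 of 45 members (26.7%), against 32.2% of all genes. They were 1 of 7 beta subunits, 3 of 6 ATPases, 4 of 11 non-ATPase subunits, 1 of 7 chaperones and 3 of 4 activators or inhibitors. Psmb3, Psmc2, Psmd8 and Psme1 passed with each array left out, and the count was 4 without granulocyte-derived clone 3. With the mean of their probe sets Psmb3 (adjusted p = 0.092) and Psmf1 (adjusted p = 0.313) lost the call. Among the called members, the widest gaps between origin means were those of Psmc5 (0.46), Psme1 (0.36), Psmd6 (0.36) and Psmc2 (0.36), followed by Psmd9, Psmc3, Psmd8, Psme3, Psmd14 and Psmd12 at 0.28 to 0.32. Granulocyte-derived lines were lowest for Psmc5, Psmd6 and Psmc2 and highest for Psme1. None passed with the mean fibroblast marker level as a covariate, where limma gave adjusted p from 0.154 to 0.336 for the members named here.

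Against the other origins, 14 of 45 members were lower and 3 higher in granulocyte-derived lines of passage 10. This was 37.8% called against 38.2% of all genes, of which 21.1% were higher and 17.2% lower. The members' median difference was -0.10 with 34 of 45 below 0, against -0.01 over all genes. Lower members were 4 of 6 ATPases, 3 of 11 non-ATPase subunits, 3 of 7 chaperones, 1 of 8 alpha subunits, 1 of 7 beta subunits, Psme3 and Psme3ip1. Higher members were Psme1, Psmf1 and Psmd8. With the mean of its probe sets Psmf1 had the opposite sign, -0.12 (adjusted p = 0.119), and no call.

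Psmc2 read 13.00, 13.06 and 12.96 in granulocyte-derived clones of passage 10. It read 13.37, 13.38 and 13.33 in fibroblast-derived, 13.33, 13.23 and 13.33 in B cell-derived and 13.24, 13.17 and 13.31 in T cell-derived clones. Every granulocyte-derived clone lay below every other clone, a difference of -0.29 ± 0.05 (adjusted p = 0.000651). Psmd6 read 12.53, 12.39 and 12.23 in granulocyte-derived clones and 12.65 to 12.82 elsewhere, a difference of -0.34 ± 0.06 (adjusted p = 0.00114). Psmc5, an ATPase, read 11.97, 11.73 and 11.61 against 12.03 to 12.36, a difference of -0.35 ± 0.07 (adjusted p = 0.00243). Psmd14 read 13.03, 12.90 and 12.91 against 13.14 to 13.29, a difference of -0.26 ± 0.05 (adjusted p = 0.00151). The groups did not overlap for any of these 4 genes.

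Psme3, a subunit of a nuclear activator, was lower by -0.27 ± 0.05 (adjusted p = 0.00119), the chaperone Psmd9 by -0.30 ± 0.07 (adjusted p = 0.00319), the lid subunit Psmd12 by -0.25 ± 0.06 (adjusted p = 0.00471) and the ATPase Psmc3 by -0.24 ± 0.06 (adjusted p = 0.00566), all without overlap. These 8 genes kept the call with each array left out. Psme1 ran the other way, at 11.76, 11.64 and 11.86, and was higher by 0.24 ± 0.06 (adjusted p = 0.00914). Its clones overlapped those of T cell origin at 11.55, 11.76 and 11.74, and the call was lost without granulocyte-derived clone 3 (0.19, adjusted p = 0.0739). The catalytic subunits did not pass, with Psmb5 at -0.10, Psmb6 at -0.06 and Psmb7 at -0.01 (adjusted p = 0.151, 0.404 and 0.881), nor did Psmc3ip at 0.16 and Psme4, an activator subunit, at 0.05 (adjusted p = 0.0668 and 0.465).

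Fibroblast markers moved with this comparison: 15 of 17 were called lower in granulocyte-derived lines, whose list mean ran from 7.95 to 8.06 by clone, against 8.42 to 9.55 in the other origins. With that mean as a covariate the count fell from 17 to 0. Origin and fibroblast list hardly vary apart at passage 10, so their parts cannot be told apart. The count was 10 without granulocyte-derived clone 3. Of the 17 members called at passage 10, all measured at passage 4 too, 3 had the same sign in the comparison at passage 4. Psma5, Psmc2, Psmd6, Psmd9, Psmd14 and Psme1 were called at both passages, each with the opposite sign. Psma5 and Psmc2 were read from different probe sets in the 2 tables. With the mean of their probe sets at passage 10, Psma5 was -0.08 (adjusted p = 0.294), with no call, and Psmc2 -0.29 (adjusted p = 0.00112). The values come from separately normalized tables of different array platforms, so passage and platform cannot be told apart. The difference between the passages was not tested.

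**Figure D3:**
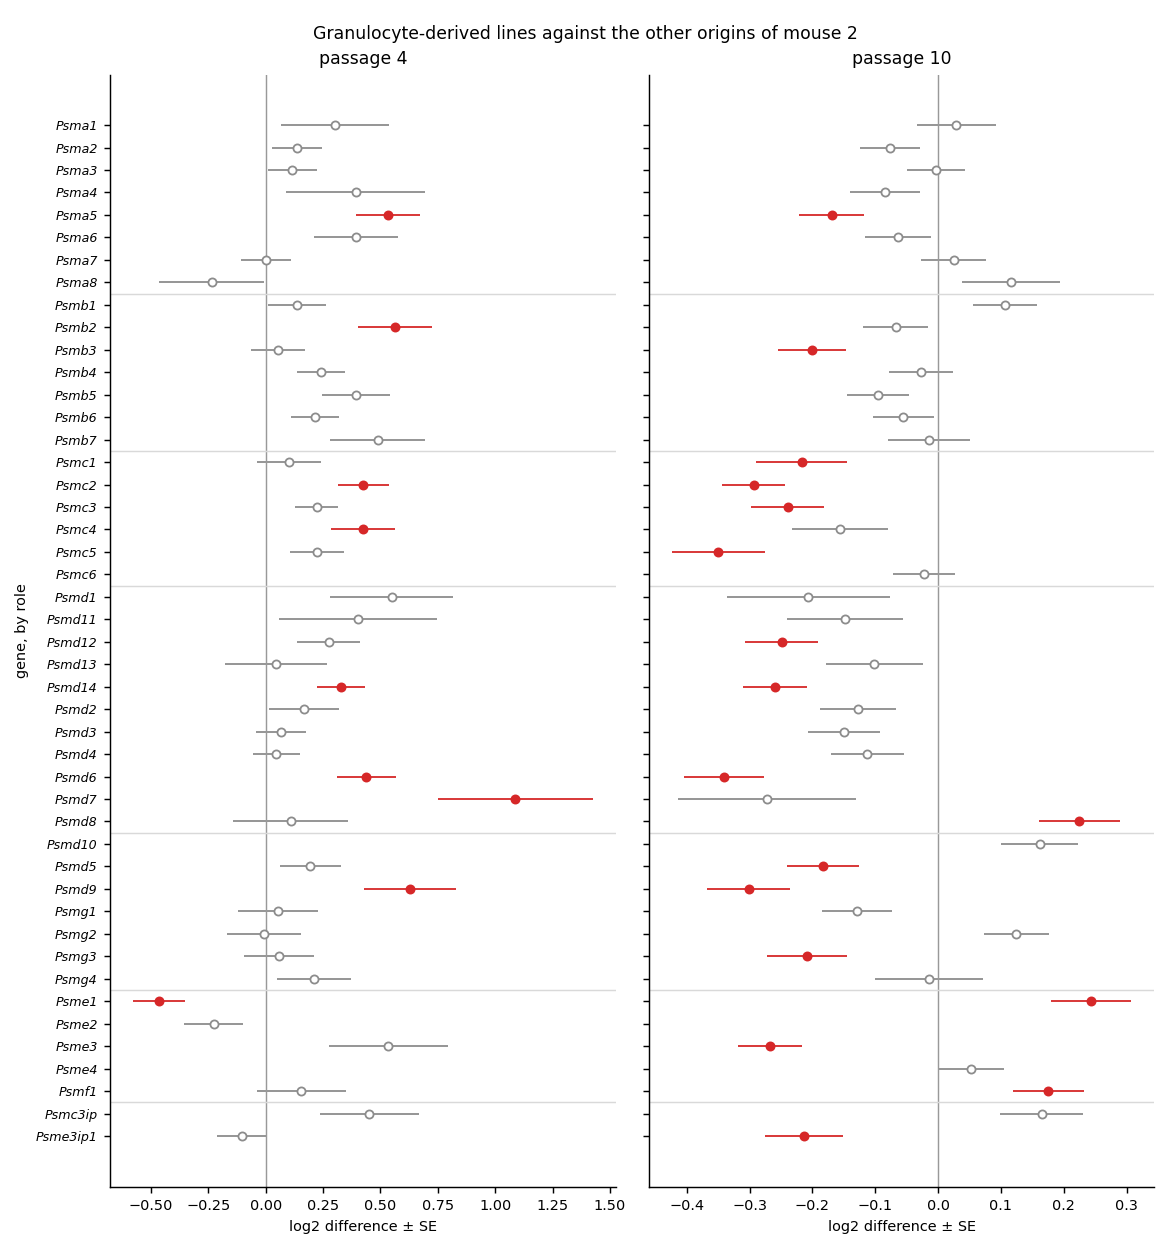
Difference of granulocyte-derived lines from the mean of the other 3 origins of mouse 2 for each member, in log2 units ± SE, at passage 4 and passage 10; filled points have adjusted p under 0.05, and the horizontal scales of the panels differ. At passage 4, 38 of 43 members lie above 0, and at passage 10, 34 of 45 lie below 0.

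The other origins of passage 10 gave few calls. In fibroblast-derived lines 2 of 45 members were higher and 2 lower, 8.89% called against 13.8% of all genes, of which 5.30% were higher and 8.46% lower. With quantile scaling the split was 1 and 3, and with cyclic loess 1 and 1. Psmc2 was higher by 0.18 ± 0.05 (adjusted p = 0.034) and Psmb3 by 0.18 ± 0.05, while Psme1 was lower by -0.24 ± 0.06 (adjusted p = 0.0294) and Psmf1 by -0.20 ± 0.06. No call here held with each array left out: the count was 0 without fibroblast-derived clone 1 or 2 or B cell-derived clone 2, 1 without T cell-derived clone 2 or granulocyte-derived clone 3, and 2 without T cell-derived clone 1, granulocyte-derived clone 1 or B cell-derived clone 1. Psmc2 lost the call without any of 6 arrays, where its difference was 0.17 to 0.20, or with the mean of its probe sets (0.11, adjusted p = 0.192). With the mean of their probe sets Psmb3 (0.11, adjusted p = 0.175) and Psmf1 (-0.005, adjusted p = 0.969) lost the call too. All 17 fibroblast markers were called higher in these lines.

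In B cell-derived lines of passage 10 limma called none of 45 members, against 0.0645% of all genes. An unadjusted p under 0.05 was found for 4 members and for 1451 of all 12394 genes. In T cell-derived lines limma called none, against 0.0242% of all genes. Here 10 members and 2130 of all 12394 genes had an unadjusted p under 0.05. The ATPases had a median difference of 0.09 and the non-ATPase subunits of 0.13, the latter with 9 of 11 above 0. The median was 0.06 over all members and 0.005 over all genes. Without granulocyte-derived clone 1 the count in T cell-derived lines was 1. The differences of Psmb5, Psmb6, Psmb7 and Psmd14 were between -0.05 and 0.10 in both comparisons.

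At passage 16 limma called no member among the 4 origins of mouse 2, against 1.52% of all genes. An unadjusted p under 0.05 was found for 3 of 43 members and for 2485 of all 11807 genes. Psmb5 read 10.90, 11.34 and 11.15 in fibroblast-derived, 11.20, 10.95 and 10.80 in B cell-derived, 11.10, 11.03 and 10.61 in T cell-derived and 11.09, 11.15 and 10.90 in granulocyte-derived clones. The 4 origins overlapped. Psmc4, lowest in T cell-derived lines at passage 4, read 11.53, 11.48 and 11.28 there and 11.16 to 11.62 in the other origins, which overlapped as well. The widest gap between origin means was 1.20 for Psmd7 (adjusted p = 0.173), between fibroblast- and granulocyte-derived lines. The granulocyte-derived mean of 7.51 includes the array that stood apart, where Psmd7 had its lowest value, 5.69, so this gap rests largely on that array. The count was 0 without the array that stood apart and 7 without granulocyte-derived clone 2.

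Whether the change from passage 4 to passage 16 differed among the origins of mouse 2 was tested as an interaction. This test called 14 of 43 members (32.6%), against 32.8% of all genes, a share near the background. The test and the passage changes of mouse 2 reuse the passage 4 arrays of the origin comparisons, so their calls are not independent. Psmb5, Psmb7, Psmc4, Psmc5, Psmd6, Psmd7 and Psme1 passed with each of the 24 arrays left out. The count was 8 without fibroblast-derived clone 2 of either passage or granulocyte-derived clone 2 of passage 4, 9 without granulocyte-derived clone 1 of passage 4, 13 without the array that stood apart and 23 without granulocyte-derived clone 2 of passage 16.

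**Figure D4:**
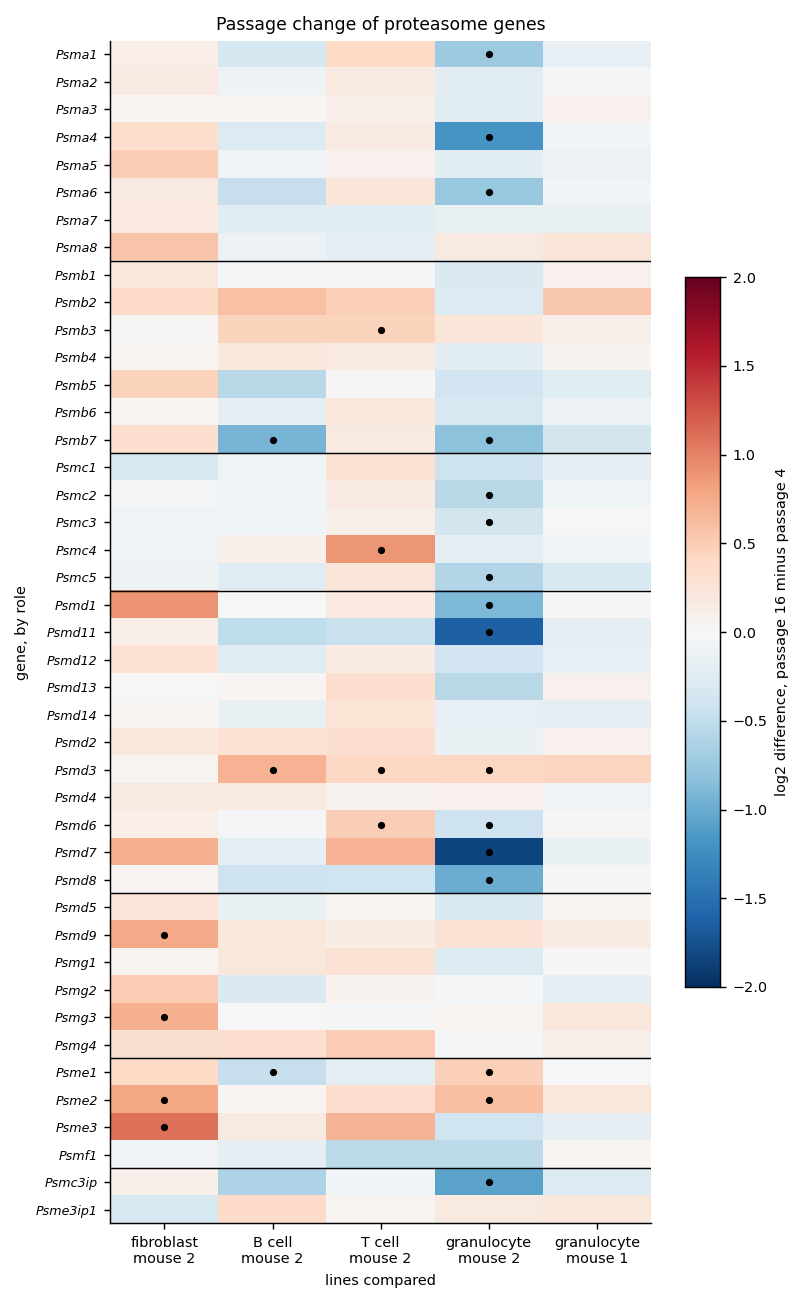
Change of each of the 43 members from passage 4 to passage 16 in log2 units (colour, red higher at passage 16) for the 4 origins of mouse 2 and the granulocyte-derived lines of mouse 1, in blocks of alpha, beta, ATPase, non-ATPase, chaperone, activator or inhibitor, and symbol-only genes; dots mark adjusted p under 0.05. The granulocyte-derived column of mouse 2 holds 16 dots, 13 of them on lower values, and that of mouse 1 holds none.

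Averaged over the 4 origins, 6 of 43 members were higher and 4 lower at passage 16, 23.3% called against 29.0% of all genes, of which 16.6% were higher and 12.4% lower. The members' median change was 0.00 against 0.07 over all genes. For none of the 10 were all clones of 1 passage apart from those of the other. Psme2 rose by 0.44 ± 0.08 (adjusted p = 0.000197) and Psmc3ip fell by 0.41 (adjusted p = 0.0201). Psmb7 at -0.31, Psmb5 at -0.12, Psmb6 at -0.07, Psmd14 at 0.00 and Psme1 at 0.06 did not pass (adjusted p = 0.0663, 0.337, 0.437, 0.989 and 0.537). Psme2, Psmc3ip, Psmb3 and Psmd3 kept the call with each array left out, and the count was 6 without T cell-derived or B cell-derived clone 3 of passage 16. Psmb3, whose call of 0.29 ± 0.07 was given by its brightest probe set, had a change of -0.36 by its other one; it was named after its values were seen.

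In fibroblast-derived lines 4 members rose and none fell, 9.30% called against 12.2% of all genes, of which 5.76% were higher and 6.43% lower. The median change was 0.17 against -0.01 over all genes. Psme2 went from 9.76, 9.23 and 9.36 to 10.09, 10.29 and 10.27, with no overlap, a rise of 0.77 ± 0.16 (adjusted p = 0.0015). It held with each array left out. Psme3 went from 8.06, 7.77 and 8.04 to 8.82, 9.18 and 9.15, a rise of 1.10 ± 0.32 (adjusted p = 0.0232). The chaperone Psmg3 rose by 0.71 ± 0.19 (adjusted p = 0.0116) and the chaperone Psmd9 by 0.76 ± 0.24 (adjusted p = 0.0415), both without overlap.

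Those changes of the fibroblast-derived lines leaned on single arrays. Without clone 2 of passage 4, Psmg3 gave 0.49 (adjusted p = 0.119), Psmd9 0.53 (adjusted p = 0.262) and Psme3 1.00 (adjusted p = 0.0915), and 1 member was called. Psme3 was also lost with the mean of its probe sets (0.87, adjusted p = 0.0907) and without clone 2 (1.03) or clone 3 (1.05) of passage 16, and Psmd9 without clone 3 of passage 4 (0.83) or any clone of passage 16 (0.80, 0.79 and 0.67) or with the mean of its probe sets (0.40, adjusted p = 0.231). The count was 2 without clone 2 or clone 3 of passage 16, 7 without clone 1 of passage 4 and 9 with the spread estimated without the array that stood apart. Psme1 at 0.40, Psmb5 at 0.46, Psmb7 at 0.33, Psmb6 at 0.04, Psmd14 at 0.04 and Psmc3ip at 0.10 did not pass (adjusted p = 0.0527, 0.106, 0.492, 0.906, 0.911 and 0.888). Fibroblast markers rose for 8 and fell for 1 of 15 genes, and with their mean as a covariate no member was called.

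In B cell-derived lines Psmd3 rose, and Psmb7 and Psme1 fell. These 3 of 43 members (6.98%) compare with 8.0% of all genes, of which 5.51% were higher and 2.49% lower. With quantile scaling the split was 2 higher and 1 lower, and with cyclic loess 2 and 2. The median change was -0.09 against 0.06 over all genes. Psmd3 went from 9.32, 9.05 and 9.32 to 9.94, 9.88 and 9.94, a rise of 0.69 ± 0.13 (adjusted p = 0.00216) that held with each array left out. Psmb7 went from 11.67, 11.78 and 11.49 to 10.89, 10.96 and 10.33, a fall of -0.92 ± 0.25 (adjusted p = 0.0242). Psme1 went from 10.88, 10.89 and 11.01 to 10.69, 10.54 and 10.16, a fall of -0.46 ± 0.14 (adjusted p = 0.0351). The passages did not overlap for these 3 genes.

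Psmb7 lost its call in B cell-derived lines without clone 1 (-0.91) or clone 2 (-0.86) of passage 4 or clone 3 of passage 16 (-0.73). Psme1 lost it without any clone of passage 4 (-0.49, -0.48 and -0.42) or clone 2 (-0.50) or clone 3 (-0.31) of passage 16. The count was 1 without clone 1 or clone 2 of passage 4 or clone 3 of passage 16, and 7 with the spread estimated without the array that stood apart. Psmb5 at -0.55 (adjusted p = 0.0569), Psmb6 at -0.20 (adjusted p = 0.412), Psmd14 at -0.14 (adjusted p = 0.576), Psmc3ip at -0.62 (adjusted p = 0.156) and Psme2 at 0.03 (adjusted p = 0.944) did not pass. Fibroblast markers rose for 8 and fell for 1 of 15 genes, and with their mean as a covariate no member was called.

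In T cell-derived lines 4 members rose and none fell, 9.30% called against 17.9% of all genes, of which 7.49% were higher and 10.4% lower. Psmc4 went from 10.74, 10.09 and 10.82 to 11.53, 11.48 and 11.28. The passages did not overlap, and the rise was 0.88 ± 0.17 (adjusted p = 0.00058), held with each array left out. Psmd6 rose by 0.50 ± 0.16 (adjusted p = 0.0281), the beta subunit Psmb3 by 0.44 ± 0.14 (adjusted p = 0.0323) and Psmd3 by 0.41 ± 0.13 (adjusted p = 0.0319), all without overlap. The median change was 0.17 against 0.05 over all genes. Psmb5 at 0.02, Psmb6 at 0.20, Psmb7 at 0.17, Psmd14 at 0.28, Psme1 at -0.19, Psme2 at 0.34 and Psmc3ip at -0.05 did not pass (adjusted p = 0.961, 0.306, 0.683, 0.145, 0.382, 0.141 and 0.916).

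The count in T cell-derived lines was 1 without clone 1 of passage 4 or clone 1 or 2 of passage 16, and 2 without clone 3 of either passage. Psmd6 lost its call without any of the clones of passage 4 (0.47, 0.52 and 0.51) or clone 1 or 2 of passage 16 (0.45 and 0.45). Psmd3 lost it without clone 1 (0.36) or clone 2 (0.39) of passage 4 or any clone of passage 16 (0.44, 0.43 and 0.36). Psmb3 lost it without clone 1 (0.34) or clone 3 (0.38) of passage 4 or any clone of passage 16 (0.46, 0.45 and 0.42), with quantile or cyclic loess scaling (0.40 and 0.36) and with the mean of its probe sets (0.27, adjusted p = 0.245). With the spread estimated without the array that stood apart, 7 rose and 1 fell. Fibroblast markers fell for 6 of 15 genes.

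Granulocyte-derived lines of mouse 2 had the most calls between passages 4 and 16. Of 43 members, 13 were lower and 3 higher at passage 16, 37.2% called against 36.0% of all genes, of which 22.0% were higher and 14.0% lower. The median change was -0.29 with 34 of 43 below 0, against 0.21 over all genes. Quantile scaling put these medians at -0.16 and 0.12 and cyclic loess at -0.16 and 0.08. Lower members were 3 of 8 alpha subunits, 1 of 7 beta subunits, 3 of 5 ATPases, 5 of 11 non-ATPase subunits and Psmc3ip. Higher members were Psme1, Psme2 and Psmd3, and none of the 6 chaperones passed.

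The largest falls came from lid subunits. Psmd7, the partner of the deubiquitinase Psmd14, went from 9.50, 9.46 and 9.05 to 8.28, 8.55 and 5.69. Psmd11, a lid subunit that has been linked to high proteasome activity in pluripotent cells, went from 10.37, 10.37 and 10.12 to 9.51, 9.77 and 6.69. In both, all clones of passage 16 lay below those of passage 4, and clone 3 lay far below its 2 fellow clones. Psmd7 fell by -1.83 ± 0.41 (adjusted p = 0.00163) and by -0.92 without that array (adjusted p = 0.00802). Its other probe sets gave 0.55 and 0.12, and the mean of its probe sets -0.39 (adjusted p = 0.0568), with no call. Psmd11 fell by -1.63 ± 0.42 (adjusted p = 0.00466) and by -0.65 without that array (adjusted p = 0.0231). Its other probe sets gave 0.28 and -2.46.

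Without the array that stood apart, 7 of 43 members were called in this comparison. Psme1 and Psme2 were higher and the others lower, against 13.3% of all genes higher and 6.82% lower without that array. Psmc5 went from 10.02, 10.16 and 10.30 to 9.69, 9.88 and 9.14, a fall of -0.59 ± 0.14 (adjusted p = 0.00329), and of -0.37 without it (adjusted p = 0.036). Psmc3ip fell by -1.08 ± 0.26 (adjusted p = 0.00319), and by -0.84 without it (adjusted p = 0.0316). The alpha subunits Psma4, Psma6 and Psma1 fell by -1.18, -0.76 and -0.73 (adjusted p = 0.0168, 0.0107 and 0.0485). Without that array the 3 changes were -0.36, -0.41 and -0.12 (adjusted p = 0.273, 0.146 and 0.715). Psmb7 fell by -0.83 ± 0.25 (adjusted p = 0.0147), and the change was -0.49 without it (adjusted p = 0.168).

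The interferon-inducible activator subunits rose in these lines. Psme1 went from 10.33, 10.05 and 10.02 to 10.54, 10.66 and 10.64, and Psme2 from 9.52, 9.49 and 9.61 to 10.02, 10.42 and 10.01. The passages did not overlap for either gene. Psme1 rose by 0.48 ± 0.14 (adjusted p = 0.00961) and Psme2 by 0.61 ± 0.16 (adjusted p = 0.00459), and by 0.46 and 0.68 without the array that stood apart. Psmd3 rose by 0.41 ± 0.13 (adjusted p = 0.0203), with 0.35 and no call without it (adjusted p = 0.0809), 0.38 without clone 1 of passage 4 and 0.38 without clone 2 of passage 4. Psmb5 at -0.38 (adjusted p = 0.0935), Psmb6 at -0.32 (adjusted p = 0.0541) and Psmd14 at -0.17 (adjusted p = 0.295) did not pass.

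Psmc2, Psmc3ip, Psmc5, Psmd7, Psmd11, Psme1 and Psme2 kept the call in this comparison with each array left out. The count was 8 without clone 1 of passage 4, where Psma4 (-1.13), Psmb7 (-0.75) and Psma1 (-0.70) were lost. Psma1 was also lost without clone 2 (-0.76) or clone 3 (-0.74) of passage 4. When these 2 groups were fitted alone, limma called no member, with adjusted p from 0.074 to 0.358 for the called members whose changes are given above. Fibroblast markers rose for 5 and fell for 3 of 15 genes. Pluripotent markers fell for 6 of 9 genes, and for 2 without the array that stood apart. Endoderm markers rose for 3 of 8, with and without that array. Granulocyte markers rose for 4 of 6 and T cell markers for 3 of 5, and none of either was called without it. The granulocyte list mean was 4.19, 3.93 and 5.47 in clones 1 to 3 of passage 16. The part of these markers in the result was not tested.

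Granulocyte-derived lines of mouse 1 showed no called change between the same passages. Limma called no member, against 1.14% of all genes. Psmb5 read 11.87, 11.69 and 11.43 at passage 4 and 11.46, 11.44 and 11.38 at passage 16, which overlapped. Psmb7 read 11.68, 11.89 and 11.74 and then 11.46, 11.58 and 11.16, without overlap, a change of -0.37 (adjusted p = 0.705). Psmd7 read 9.50, 9.13 and 9.02 and then 9.11, 9.33 and 8.83. Fibroblast markers rose for 6 and fell for 1 of 15 genes.

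Lines of granulocyte and muscle precursor origin from mouse 1 were compared next, at passages 4 and 6, so passage differed along with origin. Of 43 members, 10 were higher in granulocyte-derived lines of passage 4 and none lower, 23.3% called against 21.7% of all genes, of which 10.1% were higher and 11.6% lower. The median difference was 0.30 with 37 of 43 above 0, against -0.06 over all genes. Called were 3 of 7 beta subunits, 2 of 5 ATPases, 3 of 11 non-ATPase subunits, 1 of 6 chaperones and Psme3. The 3 beta subunits were the catalytic ones.

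Psmb5 read 11.87, 11.69 and 11.43 in granulocyte-derived and 11.14, 10.86 and 10.65 in muscle precursor-derived clones. The groups did not overlap, and the difference was 0.78 ± 0.18 (adjusted p = 0.00224). Psmb7 read 11.68, 11.89 and 11.74 against 11.10, 10.97 and 10.73, a difference of 0.84 ± 0.25 (adjusted p = 0.0178). Psmb6 read 12.25, 12.24 and 12.10 against 11.93, 11.78 and 11.60, a difference of 0.42 ± 0.13 (adjusted p = 0.0191). All 3 active-site subunits were separated on every array. Psmd6 read 11.85, 11.83 and 11.52 against 11.19, 10.94 and 10.78, a difference of 0.76 ± 0.16 (adjusted p = 0.000799). Psme3 was higher by 1.05 ± 0.32 (adjusted p = 0.0172), Psmc4 by 0.68 ± 0.17 (adjusted p = 0.00452) and the chaperone Psmg2 by 0.68 ± 0.20 (adjusted p = 0.0137). Psmd12 at 0.49 ± 0.17 and Psmd14 at 0.46 ± 0.13 also passed (adjusted p = 0.0342 and 0.00952). Psme1 at 0.26, Psme2 at 0.28 and Psmc3ip at 0.64 did not (adjusted p = 0.197, 0.221 and 0.086).

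**Figure D5:**
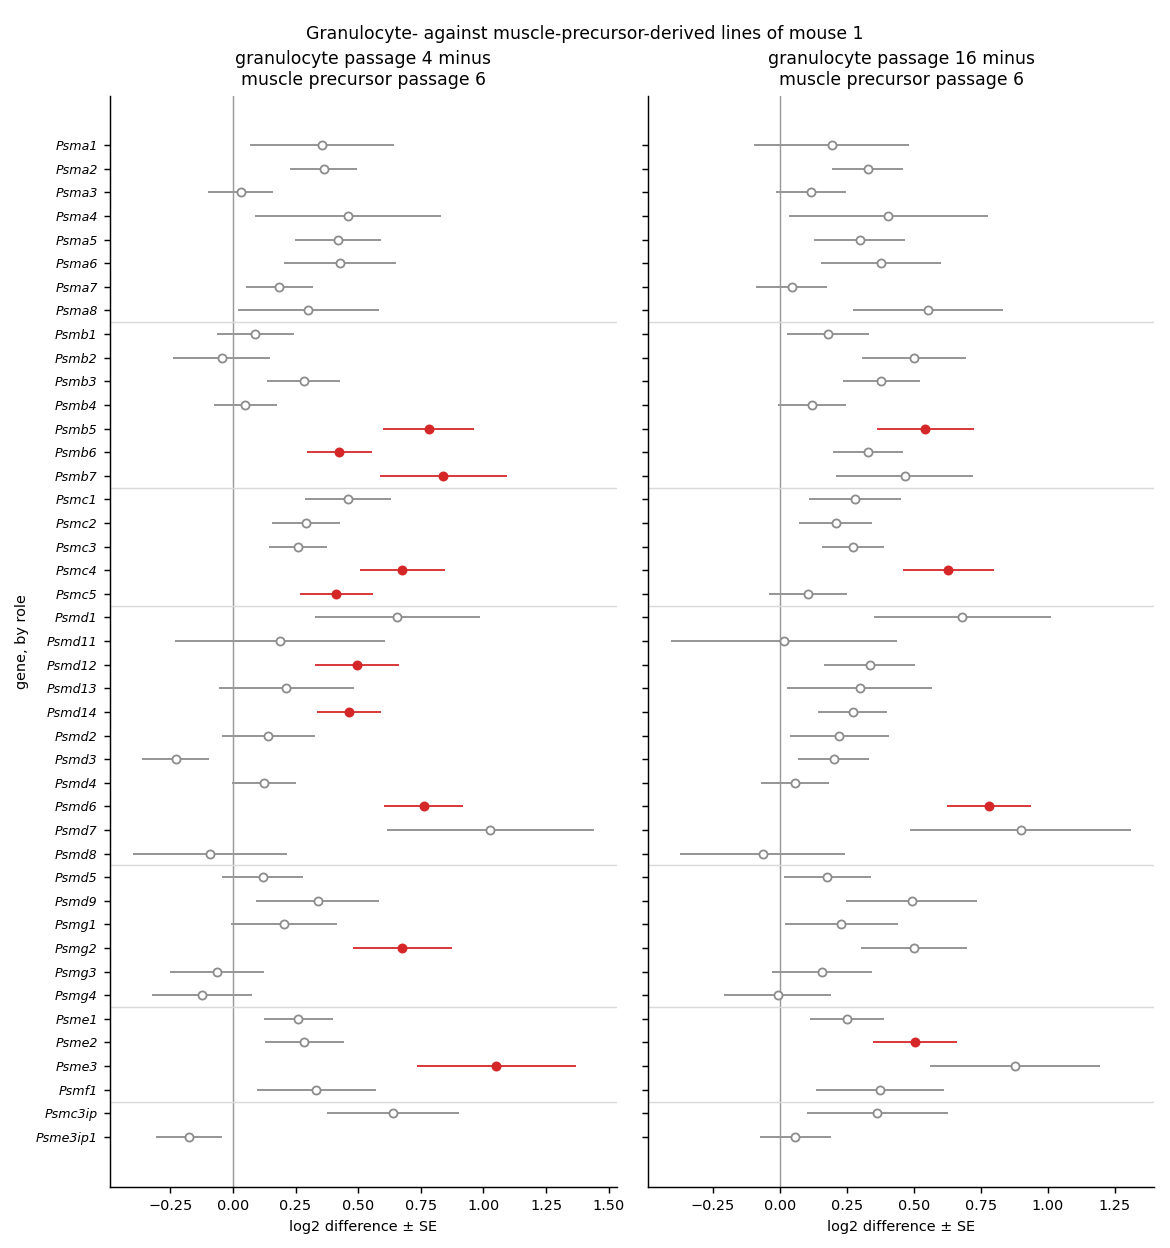
Difference between granulocyte- and muscle precursor-derived lines of mouse 1 for each member, in log2 units ± SE, with granulocyte-derived lines of passage 4 and of passage 16 against the same muscle precursor lines of passage 6; filled points have adjusted p under 0.05, and the horizontal scales differ. In the first panel 37 of 43 and in the other 41 of 43 members lie above 0.

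Psmb5, Psmc4 and Psmd6 held in that comparison with each array left out. The count was 4 without granulocyte-derived clone 1 or clone 2, 5 without muscle precursor-derived clone 2 and 3 without its clone 3. Psmb7 was lost without granulocyte-derived clone 2 (0.78) or muscle precursor-derived clone 3 (0.74). Psmb6 and Psme3 were lost without granulocyte-derived clone 1 (0.40 and 0.95) or clone 2 (0.40 and 0.99) or muscle precursor-derived clone 2 (0.43 and 1.03) or clone 3 (0.34 and 0.99). Psmd12 was lost without the same 4 arrays (0.41 to 0.48), Psmg2 without 3 of them (0.64 to 0.65) or with the mean of its probe sets (0.93, adjusted p = 0.086), and Psmd14 without 3 of them (0.38 to 0.42). All 15 fibroblast markers had a difference below 0 in granulocyte-derived lines of passage 4, 8 of them called, and their list mean was 6.79 against 7.66. With that mean as a covariate 5 members were called. When only the 2 groups were fitted, 20 were called. Endoderm markers were called higher for 4 of 8 genes, with a median difference of 1.40 and list means of 7.08 against 5.33, and their part was not tested.

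Granulocyte-derived lines of passage 16 were compared with the same muscle precursor lines of passage 6. Origin and passage differ together here and cannot be told apart. Of 43 members, 4 were higher and none lower, 9.30% called against 14.1% of all genes, of which 7.86% were higher and 6.25% lower. The median difference was 0.30 with 41 of 43 above 0, against -0.02 over all genes. Psmd6 read 11.82, 11.84 and 11.60, above all muscle precursor-derived clones, a difference of 0.78 ± 0.16 (adjusted p = 0.00135) that held with each array left out. Psmc4 was higher by 0.63 ± 0.17 (adjusted p = 0.0124), Psmb5 by 0.54 ± 0.18 (adjusted p = 0.0437) and Psme2 by 0.50 ± 0.16 (adjusted p = 0.0296), all without overlap. Psmb6 at 0.33, Psmb7 at 0.47, Psmd14 at 0.27, Psme1 at 0.25 and Psmc3ip at 0.36 did not pass (adjusted p = 0.094, 0.263, 0.176, 0.262 and 0.442).

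Psmc4 was lost in this comparison without muscle precursor-derived clone 2 (0.53) or granulocyte-derived clone 3 (0.56). Psmb5 was lost without muscle precursor-derived clone 2 (0.53) or clone 3 (0.42) or any granulocyte-derived clone (0.53, 0.53 and 0.57). Psme2 was lost without muscle precursor-derived clone 2 (0.45) or clone 3 (0.48) or granulocyte-derived clone 1 (0.51) or clone 3 (0.40). The count was 1 without muscle precursor-derived clone 2 or granulocyte-derived clone 3, and 2 without muscle precursor-derived clone 3 or granulocyte-derived clone 1. It was 19 when only the 2 groups were fitted and 11 with the spread estimated without the array that stood apart. Fibroblast list means of 7.60 and 7.66 were close here, while endoderm markers were called higher for 3 of 8 genes (list means 6.42 and 5.33), whose part was not tested. Both comparisons share the muscle precursor arrays.

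Granulocyte-derived lines of passage 4 from the 2 mice differed in 2 members. These were 4.65% of 43, against 7.73% of all genes, of which 4.43% were higher and 3.30% lower in mouse 1. Psme1 read 10.75, 10.65 and 10.92 in mouse 1 and 10.33, 10.05 and 10.02 in mouse 2, higher by 0.64 ± 0.14 (adjusted p = 0.00376), and held with each array left out. Psmb2 read 10.53, 10.27 and 10.11 in mouse 1 and 10.86, 10.95 and 11.12 in mouse 2, lower by -0.67 ± 0.20 (adjusted p = 0.0312). Neither gene overlapped between the mice. Psmb2 was lost without clone 2 (-0.66) or clone 3 (-0.58) of mouse 1 or any clone of mouse 2 (-0.73, -0.69 and -0.60), each leaving 1 call. With 1 mouse on each side, mouse and culture cannot be told apart. Endoderm markers were called higher in mouse 1 for 4 of 8 genes, with a median difference of 1.48, and their part was not tested. Psmb5 at 0.24, Psmb6 at 0.10, Psmb7 at 0.30, Psmd14 at -0.03, Psme2 at 0.36 and Psmc3ip at 0.20 did not pass (adjusted p = 0.534, 0.779, 0.587, 0.938, 0.189 and 0.767).

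Genes that work with the proteasome were taken from lists of associated proteins, ubiquitin genes and shuttles, transcription factors of proteasome genes, targets of the antioxidant factor NRF2 and the 3 immunoproteasome subunits. In granulocyte-derived lines of mouse 2, 5 of 7 associated proteins fell from passage 4 to 16 and none rose, against 14.0% of all genes lower and 22.0% higher. Among them were Usp14, a deubiquitinase bound to the proteasome (-1.74 ± 0.48, adjusted p = 0.00694), and Pomp, a chaperone of core assembly (-0.78 ± 0.21, adjusted p = 0.0073). Of the 7 ubiquitin genes and shuttles 4 fell, such as Rad23b, which carries ubiquitinated proteins to the proteasome (-0.74 ± 0.15, adjusted p = 0.000807). Without the array that stood apart, 1 of 7 associated proteins and 3 of 7 ubiquitin genes and shuttles were lower, against 6.82% of all genes. Usp14 was then -0.80 (adjusted p = 0.106), Pomp -0.39 (adjusted p = 0.103) and Rad23b -0.59 (adjusted p = 0.00762). All 3 immunoproteasome subunits rose: Psmb8 by 1.72 ± 0.31, Psmb9 by 1.37 ± 0.19 and Psmb10 by 1.06 ± 0.21. Psmb9 went from 6.18, 6.16 and 6.09 to 7.54, 7.43 and 7.56, with clone 3 close to its fellow clones. Psmb8 went from 5.74, 5.67 and 5.73 to 6.81, 6.68 and 8.80, with clone 3 well above the others. Without clone 3, Psmb8 rose by 1.03, Psmb9 by 1.34 and Psmb10 by 0.87, all called, against 13.3% of all genes higher.

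At passage 4, granulocyte-derived lines of mouse 2 had higher Ube3c, a ubiquitin ligase that acts at the proteasome (0.93), and higher Rad23b (0.58) and Nploc4 (0.46), with lower Psmb9 (-1.66). At passage 10 they had lower Ube3c (-0.28), Rad23b (-0.23) and Nploc4 (-0.24), with lower Psmb10 (-0.60) and Psmb8 (-0.51). Granulocyte- against muscle precursor-derived lines of mouse 1 showed higher Ube3c (0.98 ± 0.19) and Rad23b (0.61 ± 0.15) and lower Psmb9 (-1.73 ± 0.19) at passage 4. In T cell-derived lines of passage 4, where Psmc4 was low, 4 of 7 ubiquitin genes and shuttles and 3 of 7 NRF2 targets were lower and none of either list higher, against 6.42% of all genes lower and 12.3% higher. Among them was Nqo1, a quinone reductase (-1.62). Mafk, a small Maf partner of Nfe2l1, was higher there (1.08).

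Nfe2l1 itself rose with passage in the mean of the 4 origins (0.52). In B cell-derived lines it went from 9.26, 9.30 and 9.31 to 9.97, 10.12 and 10.42, a rise of 0.88 ± 0.17 (adjusted p = 0.00175). In granulocyte-derived lines of mouse 1 it went from 9.27, 9.02 and 9.36 to 9.81, 9.82 and 9.96, a rise of 0.65 ± 0.17 (adjusted p = 0.0486). The passages did not overlap in either set of lines, and in the second no proteasome member was called. The change of Nfe2l1 did not pass in granulocyte-derived lines of mouse 2. It was 0.05 there (adjusted p = 0.818), and 0.31 without the array that stood apart (adjusted p = 0.132).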

How the data were processed

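Total RNA of 45 iPSC cultures was measured on arrays. The deposited values are log2 expression values that the authors made with RMA, per the submitters' processing notes, whose version is not given in the sources used here. They came in 2 tables of 33 and 12 arrays, of different array platforms, normalized separately and never subtracted from each other. Samples were grouped by mouse, origin and passage from their labels. Probe sets with 1 symbol were kept, and each gene was read from its brightest probe set by mean value. Group means were fitted over all arrays of a table with limma 3.58.1 in R 4.3.3 (lmFit, eBayes, Benjamini-Hochberg over all genes, adjusted p under 0.05), and figures were drawn in Python 3.11.15. The number of arrays limits the precision. Same-numbered clones of passages 4 and 16 deviated together in granulocyte-derived lines (r = 0.199 to 0.311 in mouse 2 and 0.169 to 0.384 in mouse 1), so clone numbers were taken to pair these samples, from the data and not from the labels. In the other origins at least 1 pair lay below 0.1. The main differences, SE and p-values come from the fit of group means, which does not use the pairing. Clone number entered only as an alternative.

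Named were called members whose arrays did not overlap between the sides, up to 8 in each direction by size (10 by range in an F-test). Psmb5, Psmb6, Psmb7, Psme1, Psme2, Psme4, Psmd14 and Psmc3ip were named whatever their result, though not all of them in every comparison. Some other members, such as Psmd7 in mouse 1, were named outside this rule. Members and lists were chosen with earlier results of these data known. Alternatives were the mean of probe sets, quantile or cyclic loess scaling, dim genes left out below the 25th percentile, only the compared groups, the mean fibroblast marker level as a covariate, clone number as a block and each array left out. On simulated data with 100 genes changed by 1 log2 unit, 75 were recovered for passages 4 and 16 of mouse 1 granulocyte-derived lines (11807 genes), and 12 of 100 at 0.5. For granulocyte-derived lines of passage 10 (12394 genes), 100 and 84 were recovered.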

Additional observations from a re-analysis of the deposited data

Results flagged for a closer look

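The change from passage 4 to passage 16 differed among the 4 origins of mouse 2 for 14 of 43 members (32.6%). This was by limma's test of that difference itself, with p adjusted over all genes. The share was near that of all genes, 32.8%. Changes are given in log2 units in the order fibroblast-, B cell-, T cell- and granulocyte-derived. Psme1 (adjusted p = 0.00090) had 0.40, -0.46, -0.19 and 0.48. Psmd7 (0.00337) had 0.71, -0.19, 0.70 and -1.83, and adjusted p = 0.336 with the mean of its probe sets. Psmc4 (0.00386) had -0.07, 0.10, 0.88 and -0.19, so the T cell-derived lines stood apart.

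The catalytic genes Psmb7 (0.0095) and Psmb5 (0.0124) had 0.33, -0.92, 0.17 and -0.83, and 0.46, -0.55, 0.02 and -0.38. Psmd6 (0.0161) had 0.13, -0.04, 0.50 and -0.41. The ATPases Psmc5 (0.0173) and Psmc2 (0.0245) had -0.10, -0.24, 0.24 and -0.59, and -0.03, -0.05, 0.16 and -0.56. Psmd1, a scaffold of the regulatory particle (0.0258), had 0.90, 0.01, 0.20 and -0.89, and the alpha subunit Psma6 (0.0297) had 0.17, -0.46, 0.24 and -0.76.

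Psme3ip1 (0.0301) had -0.32, 0.38, 0.06 and 0.18. Psme2 (0.0448) had 0.77, 0.03, 0.34 and 0.61, with no origin below 0. Psmc3ip (0.046) had 0.10, -0.62, -0.05 and -1.08, and Psme3 (0.0483) had 1.10, 0.18, 0.68 and -0.40. The granulocyte-derived values include the array that stood apart. Without it the changes of these lines were -0.13 for Psmd1 (adjusted p = 0.632), -0.41 for Psma6 (0.146), -0.49 for Psmb7 (0.168), -0.31 for Psmb5 (0.308), -0.23 for Psmd6 (0.321) and 0.20 for Psme3 (0.62). The difference among origins was then not called for Psmc3ip (adjusted p = 0.103), Psme3 (0.0511) and Psmc2. Psmb5, Psmb7, Psmc4, Psmc5, Psmd6, Psmd7 and Psme1 kept that call with each of 24 arrays left out.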

How the results depend on the processing

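Of 2226 values of named members with 1 array left out, 1989 kept their direction and side of the threshold, 214 lost the call and 23 gained it. Quantile and cyclic loess scaling each kept 199 of 206, dim genes left out 201, the mean of probe sets 190 and the fibroblast covariate 153. With that covariate Psmc2 turned to -0.0499 in fibroblast-derived lines of passage 10.

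Counts of called members with 1 array left out ran as follows. Among origins they were 12 to 19 at passage 4, 4 to 15 at passage 10 and 0 to 7 at passage 16. At passage 4 they were 2 to 12 in fibroblast-, 1 to 7 in B cell-, 3 to 4 in T cell- and 4 to 10 in granulocyte-derived lines. At passage 10 they were 0 to 5, 0, 0 to 1 and 10 to 20. For the change with passage they were 6 to 13 in the mean, 1 to 7 in fibroblast-, 1 to 4 in B cell-, 1 to 5 in T cell- and 7 to 24 in granulocyte-derived lines, 8 to 23 for its difference among origins and 0 in mouse 1. Against muscle precursor lines they were 3 to 13 and 1 to 4, and between mice 1 to 2.

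With the mean fibroblast marker level as a covariate, counts at passage 4 were 4 for fibroblast-, 0 for B cell- and 1 for T cell-derived lines. At passage 10 they were 0 among origins, 0 for fibroblast- and 0 for granulocyte-derived lines. They were 3 for the mean passage change, 0 for that of fibroblast- and 0 for that of B cell-derived lines, 5 for granulocyte- against muscle precursor-derived lines of passage 4 and 1 between mice. With only the compared groups, which at passage 10 are all groups, counts were 7 for T cell-derived lines of passage 4, 5 for the mean passage change, 2, 1 and 0 for that of fibroblast-, T cell- and granulocyte-derived lines, 7 for its difference among origins, 20 and 19 against muscle precursor lines and 5 between mice. Cyclic loess gave 2 for fibroblast-derived lines of passage 10, and leaving out dim genes 5 for that of B cell-derived lines.

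With the spread estimated without granulocyte-derived clone 3 of passage 16, an alternative chosen after seeing the data, counts were 17, 8 and 16 for fibroblast-, T cell- and granulocyte-derived lines of passage 4, 9, 7 and 8 for the passage change of fibroblast-, B cell- and T cell-derived lines, and 11 for granulocyte-derived lines of passage 16 against muscle precursor lines. With clone number as a replicate block, counts for the passage change of granulocyte-derived lines were 16 in mouse 2 and 0 in mouse 1, and no named member there changed its call. In the other lines, where the numbers were not taken as pairs, 2 members were called for fibroblast-derived lines of passage 10 and 2 for the passage change of T cell-derived lines. The cause of these shifts was not tested.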
